A study of Mus musculus with 8 samples.

Results

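Cyclins, the kinase Cdk1 and the enzymes that switch this kinase on and off were followed across gradient fractions of mouse oocytes. The group held 10 genes, taken by matching gene symbols in the table of 25574 genes: *Ccnb1*, *Ccnb2*, *Ccnb3*, *Ccna2*, *Cdk1*, *Wee2*, *Pkmyt1*, *Cdc25a*, *Cdc25b* and *Cdc25c*. All 10 were present, and all 10 were among the 14292 genes tested, those with a mean above 0.1 FPKM (fragments per kilobase of gene, scaled to library size) in at least 1 dataset. The study separated lysates of 200 oocytes on 10 to 50% sucrose gradients by Scarce Sample Polysome profiling (SSP-profiling), collected 10 fractions, and pooled all but the first into a non-polysomal part (NP) and a polysomal part (P). The oocytes of both datasets came from hormone-primed CD1 mice of 8 weeks, an outbred stock with no introduced allele. They were isolated at the germinal vesicle stage in 100 µM IBMX, which blocks the resumption of meiosis, denuded, cultured for 180 min without it, and exposed to 0.1 mg/ml cycloheximide for 10 min, which holds ribosomes on mRNA. All 8 libraries (4 NP and 4 P) therefore shared stock, drug exposure and stage, the breakdown of the nuclear envelope (NEBD). The study described 4 profiles as independent biological replicates, and each profile gave an NP and a P library. The 8 libraries are thus not 8 independent replicates, although the main tests treated them as such. Each pool was depleted of rRNA, reverse transcribed and amplified on its own, so the ratio of P to NP FPKM is a ratio of shares within libraries and not the fraction of an mRNA that sat on polysomes. The libraries are bulk pools, in which fewer oocytes with a transcript and less of it per oocyte cannot be told apart.

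Entry into M phase is driven by Cdk1 bound to a B-type cyclin. Before entry, the kinases Wee2, an oocyte relative of Wee1, and Pkmyt1 phosphorylate Cdk1 and keep it inactive, and phosphatases of the Cdc25 family remove these phosphates. Fully grown oocytes do not transcribe, so changes in these proteins depend on stored mRNA, on its translation and on protein turnover. Many stored mRNAs carry a cytoplasmic polyadenylation element (CPE) near the 3′ end, bound by CPEB proteins, which works together with the polyadenylation signal in control of tail length and translation.

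The 3′ ends of the group were read from RefSeq transcripts on GRCm38, the build of the deposited table, since they differ in the element through which cyclin B mRNA is known to be controlled. The search was for TTTTAT or TTTTAAT on the transcript strand, within the last 150 bases of the annotated 3′ UTR. *Ccnb1* held 1 such element there, *Ccnb3* held 1 and *Wee2* held 2, so that 3 of the 9 genes with a 3′ UTR of at least 150 bases had an element. *Pkmyt1*, with a 3′ UTR of 123 bases, had none. Of 16941 genes with a 3′ UTR of this length, 24.0% held at least 1, and of the 10340 among them with a mean above 0.1 FPKM in either dataset, 25.7% did. Windows of 30 bases around the element, or around the last polyadenylation signal where no element lay near the end, are shown for 6 genes in the order 5′ to 3′, with the CPE and the signal AATAAA in capitals.
Ccnb1, chr13:100778766-100778795, minus strand: tgTTTTAATttatacatctgatatcaagtt
Wee2, chr6:40466766-40466795, plus strand: taTTTTAATccagatcattgtaAATAAAga
Ccnb3, chrX:6979692-6979721, minus strand: acTTTTATgaaagaagagaaattgttttgt
Ccnb2, chr9:70407701-70407730, minus strand: tctgctctgtattgaaggaaAATAAAgcta
Ccna2, chr3:36564881-36564910, minus strand: agtaattatatatgtgtgtaAATAAAgcat
Cdc25b, chr2:131198455-131198484, plus strand: tctgttgggggccttggttcAATAAAgcac
From the start of the first element in the last 150 bases to the start of the last AATAAA there were 29 bases in *Ccnb1*, 20 in *Wee2* and 48 in *Ccnb3*. *Ccnb1* held further polyadenylation signals 477, 757 and 854 bases from the end. Its RefSeq end, at 100778739, fell short of the gene end in the deposited table, at 100778650 on the minus strand. Which end the mRNA had in these oocytes was not tested. The second element of *Wee2* started 20 bases from the annotated end, downstream of the signal. In the whole 3′ UTR, *Ccna2* had 8 elements in 1369 bases, *Cdc25a* 6 in 1671 and *Ccnb1* 4 in 939. *Cdk1* had 2 in 3352 bases, *Wee2* 2 in 852, *Ccnb3* 1 in 234 and *Ccnb2* 1 in 230. *Pkmyt1* (123 bases), *Cdc25b* (1142) and *Cdc25c* (248) had none. These counts were not adjusted for length, and the share over all genes was taken only for the last 150 bases. The nearest element of *Ccna2* started 470 bases from the end and that of *Ccnb2* 189 bases from it. For *Cdk1* the annotated RefSeq end lay 1489 bases beyond the gene end in the deposited table, so its window is outside the interval the table gives.

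**Figure D1:**
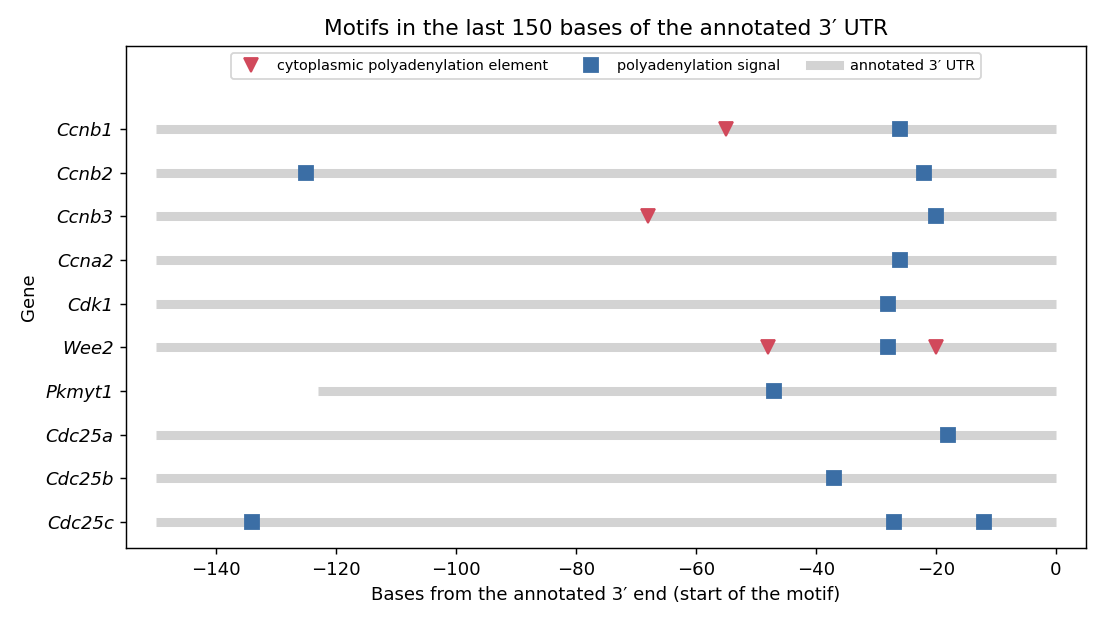
Position of cytoplasmic polyadenylation elements (triangles) and polyadenylation signals (squares, AATAAA or ATTAAA) in the last 150 bases of the annotated 3′ UTR of each gene; the x axis is the distance in bases from the annotated 3′ end and grey bars are the 3′ UTR. Only Ccnb1, Ccnb3 and Wee2 have an element in this window, and each of the 10 genes has at least 1 signal.

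Markers of the oocyte were present: 11 of 12 oocyte markers were above 0 in all 8, and their summed FPKM was 6610 to 13816 in NP libraries, against 8944 to 35770 in P libraries. Of 14 granulosa and cumulus cell markers, *Foxl2*, *Amhr2*, *Inhba*, *Has2* and *Ptx3* were at 0 throughout. *Cyp19a1* (0.190 to 75.2 FPKM) and *Nr5a2* (0.487 to 61.4 FPKM) were above 0 in all 8 libraries, and the rest in some. The summed level was 15.3 to 97.8 in NP and 3.55 to 64.0 in P. The 4 blood markers in the table were at 0 in all 8 libraries. The FPKM of all genes summed to between 390367 and 637393 in a library, and the number of genes above 0 lay between 9139 and 13753. The FPKM steps of low genes gave the number to which each library had been scaled, which lay between 1299378 and 7594637 for NP and between 2677945 and 4699328 for P.

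*Ccnb1* and *Wee2* had the highest means of the group in both datasets. In single P libraries *Wee2* was passed by *Ccnb2* (P 1) and by *Cdc25b* (P 4). In the NP dataset the mean order was *Ccnb1*, *Wee2*, *Cdc25b*, *Ccnb2*, *Cdk1*, *Cdc25a*, *Ccna2*, *Cdc25c*, *Pkmyt1* and *Ccnb3*. Among neighbours in that order, only the ranges of *Wee2* and *Cdc25b* and those of *Ccna2* and *Cdc25c* did not overlap. *Ccnb1* was above *Wee2* in 4 of 4 NP libraries although their ranges overlapped. In the P dataset the order was *Ccnb1*, *Wee2*, *Ccnb2*, *Cdk1*, *Cdc25b*, *Ccna2*, *Cdc25a*, *Pkmyt1*, *Ccnb3* and *Cdc25c*, and the ranges of every pair of neighbours overlapped.

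**Figure D2:**
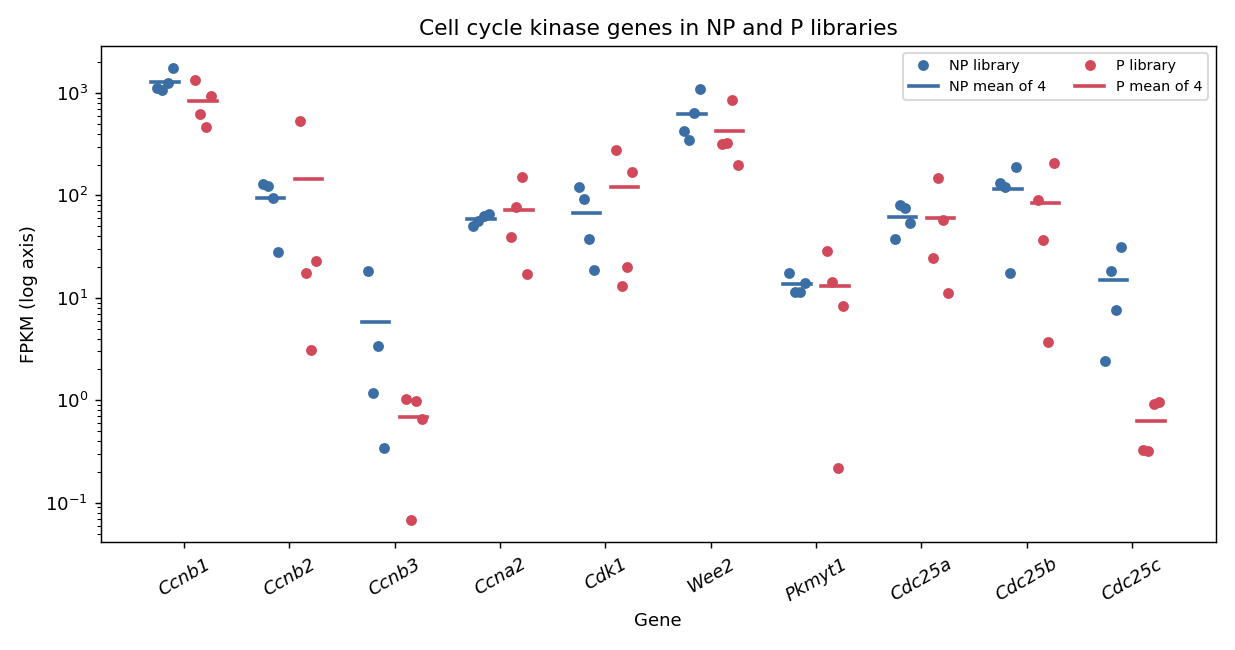
FPKM of the 10 genes (log axis) in each NP library (blue points) and P library (red points), with the mean of 4 as a line. The NP and P points overlap for every gene except Cdc25c, whose 4 NP libraries sit between 2.42 and 31.2 and whose 4 P libraries sit between 0.321 and 0.962.

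*Ccnb1* (chr13:100778650-100786570, minus strand) encodes cyclin B1, the main B-type partner of Cdk1. NP libraries 1 to 4 held 1114, 1062, 1241 and 1733 FPKM, and P libraries 1 to 4 held 1347, 624, 466 and 925 FPKM. P 2, P 3 and P 4 were below every NP library and P 1 was above 3 of them, so the datasets overlapped. The mean was 1287 ± 306 FPKM in NP and 840 ± 388 in P (SD, n = 4 each), a P to NP ratio of means of 0.653. The log2 fold change of P over NP, on the log2(FPKM + 1) scale, was −0.70 with an SE of 0.53, a 95% interval of −1.84 to 0.43 and an adjusted p of 0.644 (limma, Benjamini-Hochberg over 14292 genes). Counted from the most abundant gene of each library, *Ccnb1* ranked 61, 59, 21 and 34 in NP and 66, 74, 106 and 105 in P. By rank the datasets did not overlap, an order with all NP libraries above all P libraries that 2.72% of the genes tested had, against 3.97% with the opposite order. Even at its lowest rank, cyclin B1 mRNA was thus within the top 106 genes of every P library.

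*Ccnb2*, for cyclin B2, which can pair with Cdk1 in place of cyclin B1, varied widely between P libraries (chr9:70407689-70421554, minus strand). It was at 128, 125, 95.2 and 27.9 FPKM in NP and at 535, 17.4, 3.07 and 23.0 FPKM in P. P 1 lay above all other libraries, and the other 3 P libraries lay below all 4 NP libraries. The mean was 94.1 ± 46.6 in NP and 145 ± 260 in P, and the ratio of means of P to NP was 1.54 with P 1 and 0.154 without it. On the log scale the fold change was −1.39 (SE 1.16, limma adjusted p = 0.660), so the direction depended on how the 4 libraries were averaged. The rank of *Ccnb2* moved from 177 in P 1 to 6181 in P 3.

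*Ccnb3* encodes cyclin B3, a meiotic B-type cyclin that acts at the metaphase to anaphase transition of meiosis I (chrX:6979652-7041619, minus strand). Its levels were 18.5, 1.18, 3.37 and 0.346 FPKM in NP and 1.03, 0.0683, 0.985 and 0.654 FPKM in P. NP 1, NP 2 and NP 3 stood above every P library, and NP 4 lay within the P range. The log2 fold change was −1.28 (SE 0.85, limma adjusted p = 0.612), and −0.52 without NP 1. The NP to P ratio of means was 8.54 with all libraries and 2.39 without NP 1. Of the summed FPKM of the 3 B-type cyclins, *Ccnb1* made up 88.3, 89.4, 92.6 and 98.4% in NP and 71.5, 97.3, 99.1 and 97.5% in P. *Ccnb1* mRNA was the bulk of B-type cyclin mRNA in all 8 libraries.

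*Ccna2* encodes cyclin A2, which partners Cdk1 and Cdk2 (chr3:36564866-36572150, minus strand). NP libraries gave 50.3, 56.8, 63.1 and 66.1 FPKM, within a narrow range. P libraries gave 39.6, 76.9, 153 and 16.9 FPKM, on both sides of the NP values. The means were 59.1 ± 6.99 and 71.5 ± 59.5 FPKM, and the log2 fold change was −0.14 (SE 0.68, 95% interval −1.60 to 1.33, limma adjusted p = 0.935). Without P 3 the ratio of means fell from 1.21 to 0.753. *Exosc9*, on the other strand, overlaps 864 bases of *Ccna2* and was at a mean of 13.3 FPKM in NP and 2.19 in P. No source used here states the strand setting of the counting, so reads in the overlap could not be assigned.

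*Cdk1*, the catalytic subunit, was the only gene of the group with a positive log2 fold change on the deposited scale (chr10:69336635-69352938, minus strand). It was at 122, 93.2, 37.5 and 18.9 FPKM in NP and at 279, 12.9, 20.1 and 170 FPKM in P. P 1 and P 4 were above all NP libraries, while P 2 lay below all of them and P 3 was close to the lowest. The means were 67.9 ± 47.9 and 121 ± 128 FPKM. The fold change was 0.17 (SE 0.96, 95% interval −1.90 to 2.24, limma adjusted p = 0.945), and without P 1 it was −0.56. The ratio of means was 1.78 with all libraries and 0.998 without P 1.

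*Wee2* encodes the kinase that phosphorylates Cdk1 in oocytes and was second in abundance (chr6:40442863-40466813, plus strand). Levels in NP were 427, 351, 643 and 1094 FPKM, and levels in P were 316, 322, 847 and 200 FPKM. P 1, P 2 and P 4 were below all NP libraries, and P 3 was above 3 of them. The means were 628 ± 334 in NP and 421 ± 289 in P, with a log2 fold change of −0.65 (SE 0.60, limma adjusted p = 0.681). The somatic relative *Wee1* was at 6.13, 21.8, 26.0 and 5.09 FPKM in NP and at 2.41, 7.07, 6.14 and 10.8 FPKM in P. *Wee2* accounted for 94.1 to 99.5% of the summed FPKM of both genes in every library.

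*Pkmyt1*, for the membrane-bound kinase Myt1, was low throughout (chr17:23726336-23736729, plus strand). Its NP libraries were close together at 17.4, 11.3, 11.4 and 14.1 FPKM. Its P libraries spread from 28.9 in P 1 over 14.4 in P 2 and 8.24 in P 4 down to 0.221 FPKM in P 3, on either side of the NP values. The log2 fold change was −0.76 (SE 0.95, limma adjusted p = 0.746) with all libraries and 0.18 without P 3. *Paqr4* overlaps 544 bases of it on the other strand.

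*Cdc25a* and *Cdc25b* were the main phosphatase mRNAs, and limma called neither. *Cdc25b*, whose product is required for mouse oocytes to resume meiosis, was at 132, 122, 17.4 and 189 FPKM in NP and at 89.8, 36.5, 3.68 and 208 FPKM in P (chr2:131186949-131198497, plus strand). The libraries numbered 3 were the lowest and those numbered 4 the highest in both datasets. Its log2 fold change was −1.02 (SE 1.06, limma adjusted p = 0.703), and 0.040 without P 3. With the library number as a block in the fit, the SE was 0.58 and the limma adjusted p 0.486. *Cdc25a*, which acts on several cyclin-dependent kinases, was at 37.5, 80.0, 75.1 and 54.0 FPKM in NP and at 24.5, 148, 57.3 and 11.1 FPKM in P (chr9:109875579-109893888, plus strand). Its means, 61.7 ± 19.7 and 60.3 ± 61.8 FPKM, were close, and its log2 fold change was −0.57 (SE 0.76, limma adjusted p = 0.758). The share of *Cdc25b* in the summed FPKM of the 3 Cdc25 genes was 17.4 to 76.8% in NP libraries, against 5.95 to 94.5% in P libraries, so which of the pair led changed from library to library.

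*Cdc25c*, the third phosphatase gene, showed the largest log2 fold change of the group (chr18:34732997-34751533, minus strand). It was at 2.42, 18.2, 7.64 and 31.2 FPKM in NP and at 0.329, 0.321, 0.927 and 0.962 FPKM in P. All 4 NP libraries lay above all 4 P libraries, which was true of no other gene of the group and of 5.92% of the genes tested. The means were 14.9 ± 12.7 and 0.635 ± 0.358 FPKM, 23.4 times higher in NP, or 14.9 times without NP 4. The log2 fold change was −2.86 (SE 0.91, 95% interval −4.81 to −0.91) with an unadjusted limma p of 0.00724 and an adjusted p of 0.405, over the threshold of 0.1. With quantile normalisation and with median centring of the libraries the unadjusted limma p was 0.0590 and 0.0558. An unadjusted p under 0.05 with a higher level in NP was found for 9.47% of the genes tested on the deposited scale, for 4.04% with quantile normalisation and for 1.24% with median centring. The exact two-sided permutation test over the 70 assignments of the 8 libraries gave an unadjusted p = 0.0286, the smallest it can give. Every gene without overlap gets this value, so it adds nothing to the order stated above. For the other genes of the group the exact p ran from 0.143 (*Ccnb1*) to 0.886 (*Cdk1*). By rank within the library its datasets overlapped, with ranks of 2757 to 8172 in NP against 7245 to 10015 in P. *Cdc25c* made up 1.41 to 11.4% of Cdc25 FPKM in NP and 0.174 to 1.5% in P, again with an overlap. On the other strand, *Gm3550* overlaps 1656 bases of *Cdc25c* and was listed at 0 in both datasets, and *Spef1* overlaps 334 bases of *Cdc25b* and had a mean of 0.666 FPKM in P.

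The depth behind these values differed greatly between genes. Each FPKM value is a whole number of counting units times a constant, and the sources used here do not say whether a unit is a read or a fragment. *Ccnb1* rested on 5817 to 55492 units in NP and on 8432 to 26700 in P, and *Wee2* on 1380 to 25148 and 1619 to 11402. *Cdc25c* had 15, 46, 108 and 460 units in NP against 3, 2, 8 and 5 in P. Pooled over libraries these were 629 and 18 units, an NP to P ratio per scaled library of 27.1 with an exact 95% interval of 17.0 to 46.1, which covers counting error only. NP 4 supplied 460 of the NP units, and without it the ratio was 12 (7.36 to 20.7). *Ccnb3* had 269, 7, 112 and 12 units in NP and 22, 1, 20 and 8 in P, and the *Pkmyt1* value of P 3 came from 2 units. *Ccnb2* had 21 units in P 3 and 3873 in P 1. The number of molecules behind the units is unknown, since the cDNA was amplified. For genes other than *Ccnb1*, *Ccnb3* and *Cdc25b*, the units come from the shortest gene length that gave whole numbers in all 8 libraries and are a minimum.

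**Figure D3:**
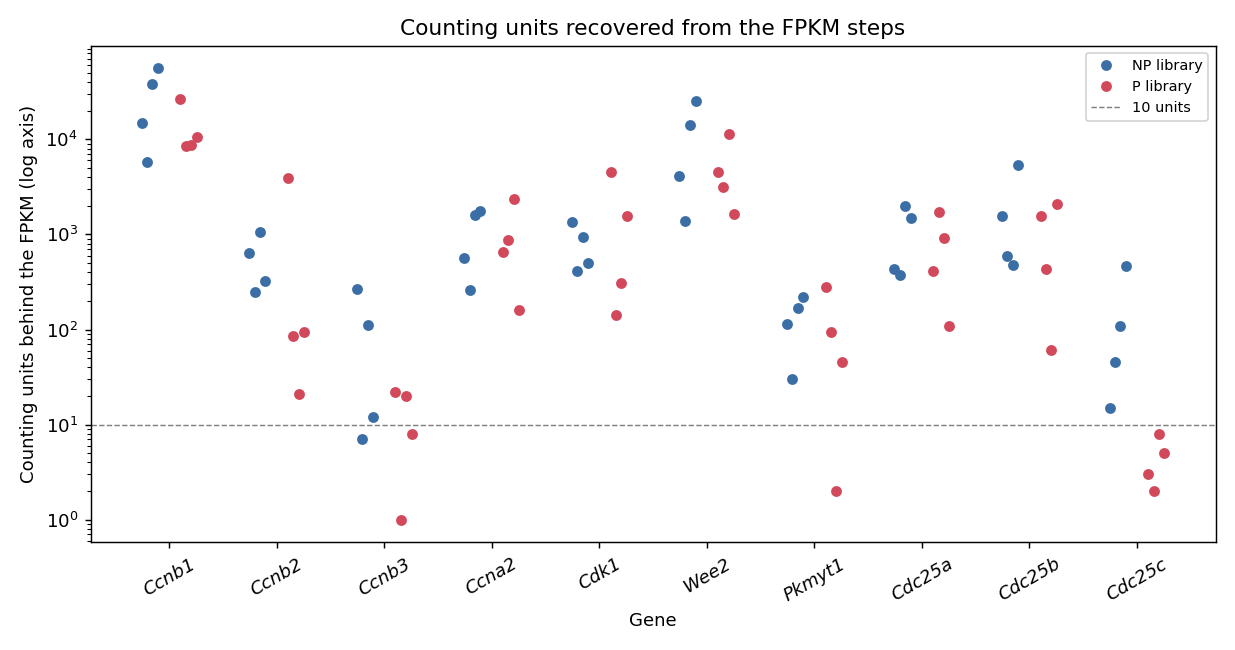
Counting units (log axis) recovered from the FPKM steps for each gene in the NP (blue) and P (red) libraries; the dashed line marks 10 units. All 4 P libraries of Cdc25c lie below that line, as do P 2, P 4 and NP 2 of Ccnb3 and P 3 of Pkmyt1, whereas Ccnb1 has at least 5817 units in each library. Except for Ccnb1, Ccnb3 and Cdc25b the units are a minimum.

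As a group, 9 of the 10 genes had a negative log2 fold change and *Cdk1* a positive one, with a median of −0.73. Over all 14292 genes 71.4% were negative and the median was −0.39. No gene of the group was among the 3 genes (0.021%) that limma called at an adjusted p under 0.1, and 1 gene, *Cdc25c*, had an unadjusted p under 0.05. The size and sign of the overall shift depended on the scale. With quantile normalisation the median of all genes was −0.02 and under median centring of every library it was 0.57. The group then had 8 and 4 negative genes, with medians of −0.46 and 0.23, beside 51.0 and 27.0% of all genes. *Ccnb1*, *Wee2*, *Pkmyt1* and *Cdc25a* turned positive under median centring, *Ccna2* under both rescalings, and *Ccnb2*, *Ccnb3*, *Cdc25b* and *Cdc25c* stayed negative under both. Relative to the all-gene median of each scale, *Cdc25c* was lowest of the 10 in all 3.

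**Figure D4:**
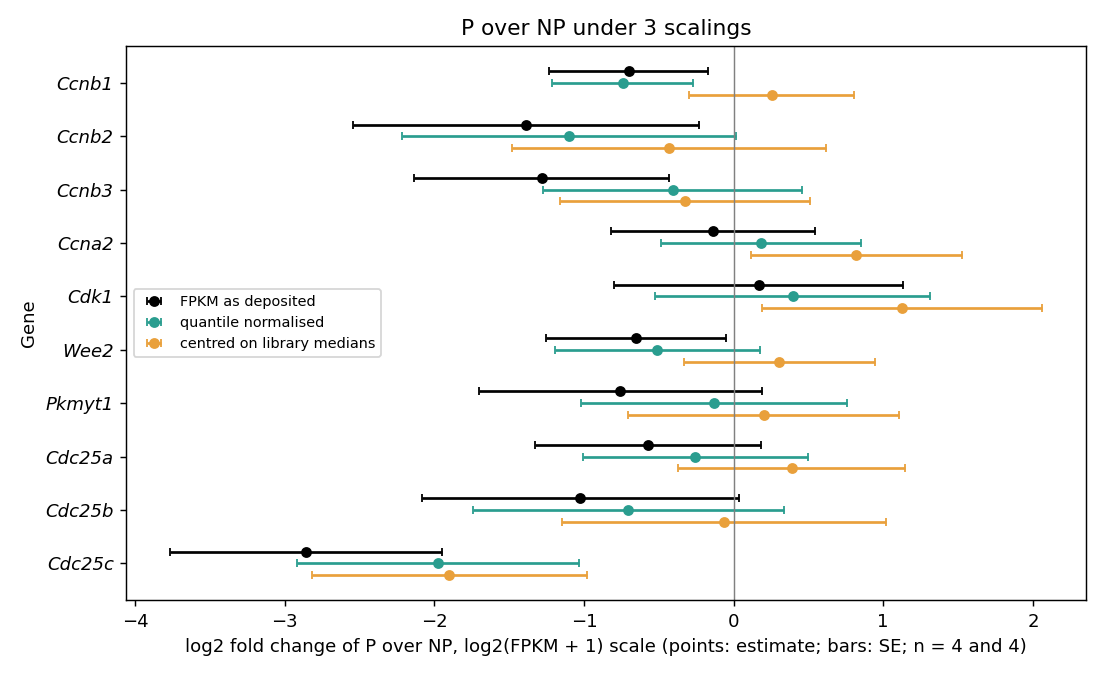
Log2 fold change of P over NP on the log2(FPKM + 1) scale (points, with bars of 1 SE, 4 NP and 4 P libraries) for the deposited FPKM, the quantile-normalised values and the median-centred values. Cdc25c is negative under each scaling, at −2.86, −1.98 and −1.90, and Cdk1 is positive under each.

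Ratios of 2 genes within a library, here of FPKM + 1, depend little on how libraries were scaled unless a gene is low, and they asked whether members of the kinase module were divided differently between NP and P. The log2 ratio of *Ccnb1* to *Ccnb2* was 3.11, 3.08, 3.69 and 5.90 in NP and 1.33, 5.08, 6.84 and 5.27 in P. That of *Ccnb1* to *Ccna2* was 4.44, 4.20, 4.28 and 4.69 in NP and 5.05, 3.00, 1.60 and 5.69 in P. The NP values of this pair were tight, with an SD of 0.22 against 1.88 in P. The ratio of *Ccnb1* to *Cdk1* was 3.18, 3.50, 5.01 and 6.44 in NP and 2.27, 5.49, 4.47 and 2.44 in P. The ratio of *Wee2* to *Cdc25b*, a kinase and a phosphatase with opposite action on Cdk1, was 1.69, 1.52, 5.13 and 2.52 in NP and 1.80, 3.11, 7.50 and −0.06 in P. NP and P values overlapped for all 4 pairs. The differences of P minus NP were 0.69, −0.56, −0.87 and 0.37 in the same order, with exact permutation p of 0.657, 0.600, 0.486 and 0.83 and an adjusted p of 0.83 for each over the 4 ratios. *Ccnb1* exceeded *Ccnb2*, *Ccna2* and *Cdk1* in all 8 libraries, and *Wee2* exceeded *Cdc25b* in 7.

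**Figure D5:**
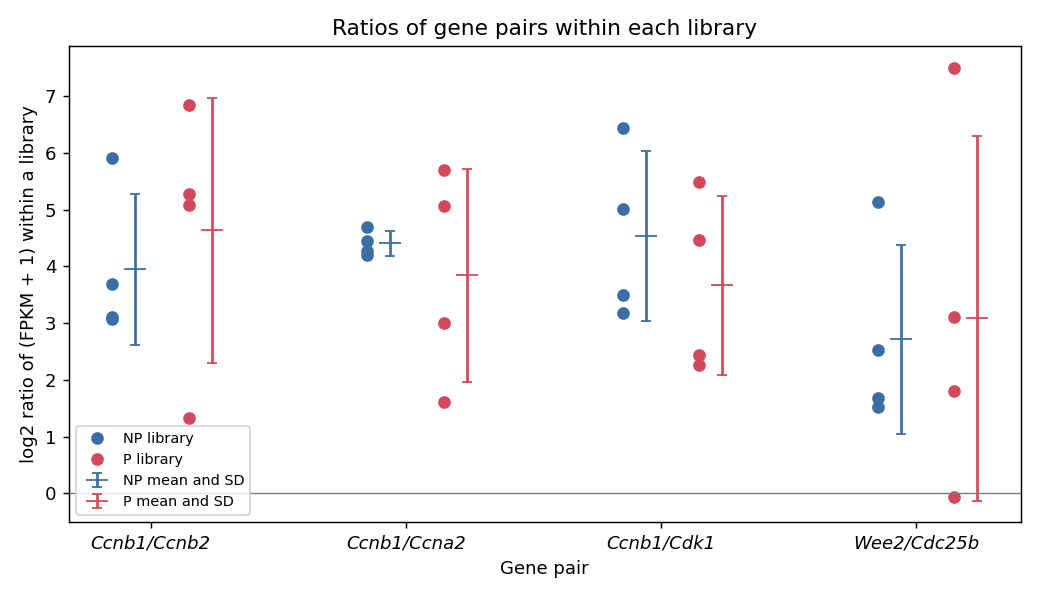
Log2 ratio of (FPKM + 1) of 4 gene pairs within each NP (blue) and P (red) library, with mean and SD of 4 beside the points. The NP points of Ccnb1/Ccna2 lie between 4.20 and 4.69, while the P points of the same pair lie between 1.60 and 5.69.

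Within the P dataset, P 1 and P 4 were set against P 2 and P 3, a split picked from these same values. Genes of the group went both ways, and the counts are descriptions and not a test. P 1 and P 4 were both above P 2 and P 3 for *Ccnb1*, *Ccnb2*, *Cdk1* and *Cdc25b*, an order seen in 15% of the genes tested. Both were below P 2 and P 3 for *Ccna2*, *Wee2* and *Cdc25a*, as for 11.5% of the genes tested. The same libraries had the higher sums of oocyte markers, 26931 and 35770 FPKM in P 1 and P 4 against 10893 and 8944 in P 2 and P 3. Their summed FPKM over all genes was also higher, at 623218 and 637393 against 440899 and 390367. The part of these sums in the levels of the 7 genes was not tested.

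Other regulators of cyclin-dependent kinases formed a list of 31 genes, all in the table, of which 28 were tested. Their median log2 fold change was −0.76, with 21 negative and 7 positive, and none had an adjusted p under 0.1. At an unadjusted p under 0.05, 2 of the 28, *Ccnf* and *Cdc14a*, were higher in NP, beside the 9.47% of all genes tested, and 1, *Cks2*, was higher in P, beside 0.476%. The share of all genes higher in P at this p was 2.55% with quantile normalisation and 19.0% with median centring. *Cks2*, a small subunit that binds Cdk1 and is required for meiosis, was at 27.6, 10.0, 29.0 and 51.4 FPKM in NP and at 116, 80.7, 55.6 and 108 FPKM in P. All its P libraries were above all its NP libraries, as for 0.357% of the genes tested on the deposited scale. By rank within the library 3.97% of the genes tested had this order, and the ranks of *Cks2* were not taken. The log2 fold change of *Cks2* was 1.73 (SE 0.63, limma adjusted p = 0.420). It was 2.04 with quantile normalisation and 2.68 with median centring (limma adjusted p = 0.731 and 0.108). Its paralogue *Cks1b* had overlapping datasets and a fold change of 0.34 (SE 0.55).

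*Ccnf*, for cyclin F, the substrate adaptor of an SCF ubiquitin ligase, was at 76.1, 46.4, 110 and 102 FPKM in NP and at 29.8, 18.9, 14.2 and 35.9 FPKM in P. All its NP libraries were above its P libraries, as for 5.92% of the genes tested, and its log2 fold change was −1.73 (SE 0.60, limma adjusted p = 0.416). With quantile normalisation and median centring *Ccnf* was at −1.47 and −0.77, with unadjusted limma p of 0.0188 and 0.253, and *Cdc14a* at −1.02 and −0.80, with unadjusted limma p of 0.191 and 0.303. *Ccne1*, for cyclin E1, gave −2.30 (SE 1.33), and the 14-3-3 genes *Ywhaq* and *Ywhae*, whose products bind phosphorylated Cdc25 proteins, gave −1.54 (SE 0.73) and 1.01 (SE 0.93). *Ccna1*, for the germline cyclin A1, was listed at 0 in all 8 libraries.

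The genes most like *Ccnb1* over the 8 libraries, by Pearson r of log2(FPKM + 1) among 4487 genes with a mean above 10 FPKM in both datasets, were *Slc30a4* (0.990), *Dtnb* (0.975) and *Ubac1* (0.952). For *Ccnb2* they were *Ica1* (0.976), *Hsd17b12* (0.970) and *Ptcd2* (0.955). Like *Ccnb2*, *Ptcd2* was highest in P 1, at 1384 FPKM, and listed at 0 in P 3. The 8 points of each correlation share library, depth and amplification, and the values are descriptions.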

How the data were processed

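RNA from the NP and the P pool of each of 4 SSP-profiles was sequenced. Per the methods and labels, the authors trimmed reads with Trim Galore 0.4.1, mapped them with HISAT2 2.0.5 to GRCm38 and deposited FPKM per gene from Seqmonk; strand setting and annotation version are not given in the sources used here. The authors' dataset means differed from means of the library columns by at most 0.000575 FPKM. Their tables of expressed genes and of DESeq2 calls hold P to NP ratios, fold changes and p-values of their own comparison and were not used.

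log2(FPKM + 1) was fitted with limma 3.58.1 (R 4.3.3, eBayes with trend, 2-sided) over genes with a mean above 0.1 FPKM in at least 1 dataset, and a call was an adjusted p under 0.1. FPKM are not counts, and no count model was fitted across genes: of genes with 1 to 5 counting units, 59.1 to 65.9% came out whole to within 0.01 with GENCODE M21 exon lengths. The interval for the pooled *Cdc25c* units was an exact binomial one that took units as independent draws, which amplified cDNA need not give. The fit was tested on simulated data. Ratios, and log2(FPKM + 1) of the genes of the group, were compared by exact permutation tests in scipy 1.17.1. Sequences are from RefSeq, GRCm38.p6; all 10 genes matched. GENCODE M21 names pseudogenes of *Ccnb1* (chromosome 7) and *Ccnb2* (chromosome 8) that are not rows of the table, and sharing of reads with them was not tested.

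Named genes were the 10 of the group, list genes that limma called or that had the largest fold changes in each direction (up to 3) at a mean above 10 FPKM, *Wee1*, *Ccna1*, *Cks1b* and *Cks2*, and the 3 genes most like *Ccnb1* and *Ccnb2*. *Cdc14a* was added after its values were seen. The genes, lists and tests were chosen with earlier results of these data known. Alternatives were another pseudocount, other filters and scalings, no trend, a replicate block and leaving out each library.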

Additional observations from a re-analysis of the deposited data

Results flagged for a closer look

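In 28 sets of 4 values (10 genes and 4 ratios, each in NP and P), Dixon's test at the 95% level marked 2. Chance marks about 1 in 20 where values are normally distributed. The gene sets were tested as FPKM, for which that condition was not tested, and not as the log2(FPKM + 1) of the fits. The number marked therefore cannot be set against that rate. *Ccnb2* in P 1, at 535 FPKM, stood apart from the other P libraries, which lay between 3.07 and 23.0 FPKM. *Ccnb3* in NP 1, at 18.5 FPKM, stood apart from the other NP libraries, which lay between 0.346 and 3.37 FPKM. The cause of either value was not tested.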

How the results depend on the processing

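limma called 3 genes of all tested, each higher in NP, and none was a gene of the group under any alternative. The number called was 5 with a pseudocount of 0.1, 5 with a filter at a mean of 1 FPKM, 20 without a trend, 0 without a filter, 0 with quantile normalisation and 0 with median centring, and ranged from 0 to 5 when 1 library was left out. At an unadjusted p under 0.05 the counts without a filter, with quantile normalisation and with median centring were 1510, 942 (578 higher in NP, 364 in P) and 2896 (177 and 2719), against 1354 and 68 on the deposited scale, and with NP 1, NP 2, NP 3, NP 4 or P 3 left out, which left 0 calls, 1224, 1098, 1244, 1598 and 1299. Each profile gave an NP and a P pool, but the sources used here do not say that a replicate number marks the same gradient; deviations of same-numbered libraries correlated at 0.139, 0.0518, 0.251 and 0.155, and 7 of 8 libraries correlated best with their own number. With the number as a replicate block limma called 1 gene, and the 4 ratios had exact p of 0.625 to 0.875. Their differences of 0.69, −0.56, −0.87 and 0.37 cannot change under such a balanced block. In the block fit the limma adjusted p of the 10 genes ran from 0.318 for *Cdc25c* to 0.928 for *Cdk1*. The SE of *Cdc25b* fell from 1.06 to 0.58 and that of *Ccnb2* from 1.16 to 0.89.

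Under median centring the log2 fold changes of *Ccnb1*, *Wee2*, *Pkmyt1*, *Cdc25a* and *Ccna2* were 0.26, 0.31, 0.20, 0.39 and 0.82, and with quantile normalisation that of *Ccna2* was 0.18. As the log2 ratio of arithmetic means, chosen after seeing the data, *Ccnb2* was 0.62 and *Ccna2* 0.28. Leaving out 1 library reversed *Ccna2* (0.0020 without P 1, 0.40 without P 4), *Cdk1* (−7.6e-05 without NP 3, −0.32 without NP 4, −0.56 without P 1, −0.33 without P 4), *Pkmyt1* (0.18 without P 3), *Cdc25a* (0.0099 without P 4) and *Cdc25b* (0.040 without P 3). At the other end of their ranges these were −0.64 for *Ccna2* without P 3, 0.88 for *Cdk1* without P 2, −1.36 for *Pkmyt1* without P 1, −1.20 for *Cdc25a* without P 2 and −1.79 for *Cdc25b* without P 4. *Cdc25c* stayed negative in 15 of 15 alternatives, from −3.95 to −1.90, with limma adjusted p of 0.185 to 0.731. Since all its NP libraries lay above all its P libraries, only quantile normalisation and median centring could have changed that sign. Under these its unadjusted limma p was 0.0590 and 0.0558, and it was under 0.05 in the other 13. *Ccnb2* reached an unadjusted limma p of 0.00547 (limma adjusted p = 0.344) without P 1, the library flagged above for this gene. In that run 10.2% of the genes tested had an unadjusted p under 0.05 with a higher level in NP. Over the runs with 1 library left out, the difference of the *Ccnb1* to *Ccnb2* ratio ranged from −0.050 (without P 3) to 1.79, that of *Ccnb1* to *Ccna2* from −1.18 to 0.18 (without P 3), that of *Ccnb1* to *Cdk1* from −1.48 to −0.23 and that of *Wee2* to *Cdc25b* from −1.10 (without P 3) to 1.42, with −0.025 without NP 2. Genes with all P libraries above all NP libraries numbered 51, or 568 by rank within the library and 70 to 189 with 1 library left out, and genes with the opposite order numbered 846, 389 and 1117 to 1607, where fewer libraries make an overlap less likely by construction. The cause of the other changes was not tested. The P values of *Cdc25c* rest on 2 to 8 counting units each.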
